A study of Mus musculus with 12 samples.

Results

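The comparison set mouse embryonic stem cells (ESCs) from fertilized blastocysts against primordial germ cells (PGCs) of the E9.5 embryo, by reduced representation bisulfite sequencing (RRBS), which reads methylation at CpG sites near MspI cutting sites. Its members were the features with a methylation level in all 4 libraries, 138776 of the 176831 features with a level in at least 1 of the 12 libraries of the series. The features fell into 8 classes, which were CpG islands, island shores, promoters, 5′ UTRs, exons, introns, 3′ UTRs and repeats. Each gene had at most 1 value per class, and each repeat value belonged to a stretch of an element's consensus.

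Both groups held 2 libraries, labelled as C57BL6 mice. The ESC lines came from Actin-GFP C57BL/6 blastocysts, were female by genotype, and were grown with LIF on feeder cells, with serum or with 2 inhibitors before induction. Which medium the sequenced ESCs were in is not given in the sources used here. The E9.5 PGCs were described as coming from female embryos and were sorted on surface proteins (SSEA1, with CD61 in some sorts). How many embryos made up a library is not given in the sources used here.

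PGCs arise from the early postimplantation epiblast and then migrate to the genital ridge. The epiblast carries a highly methylated genome, and migrating PGCs lose this methylation by division without full maintenance. Imprinted regions, germline genes and CpG islands of the inactive X chromosome are known to lose it late, and ESCs in inhibitor medium are known for a low level over the genome. A CpG island is a stretch rich in CpG dinucleotides, often at a gene's start, that is unmethylated in most cells, and a shore is its flank.

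RRBS measures no expression, so the labelled cell types could not be checked against expressed markers. The chromosomes were checked instead. Of 43 features of the Y chromosome with a level in any library, 4 had one in ESC 1 and 6 in ESC 2, against 38 in E9.5 PGC 1 and 35 in E9.5 PGC 2. A level was listed for 30 of them in both E9.5 PGC libraries and in neither ESC library. The libraries labelled E9.5 PGC thus held Y chromosome sequence although the source embryos were described as female, and values on the X chromosome are given with this in view. The other libraries of the series stood on both sides. Parthenogenetic ESC libraries had 5 and 6 Y features, and E12.5 PGC libraries had 36 and 35. PGC-like cells had 34 and 32 when made from ESCs and 29 and 31 when made from parthenogenetic ESCs. Parthenogenetic embryos are described as lacking a paternal genome, and where this Y sequence came from was not tested.

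**Figure D1:**
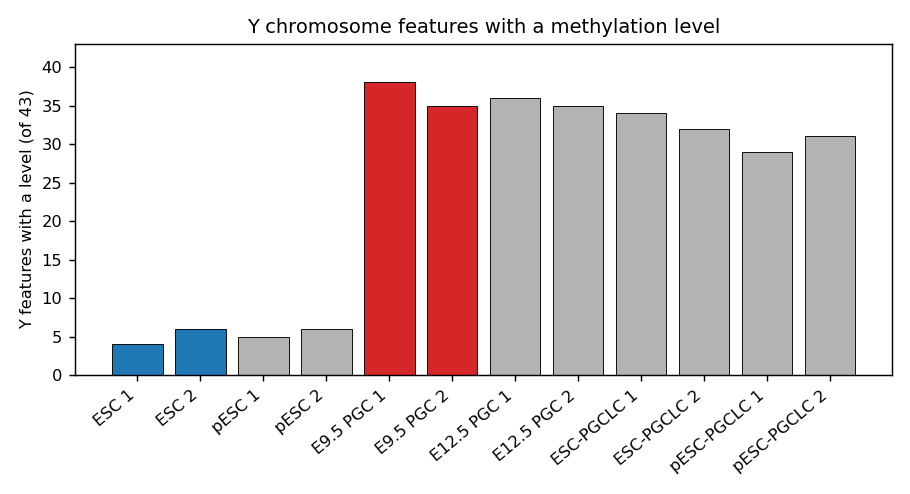
Bars give the number of Y chromosome features with a methylation level in each of the 12 libraries, of 43 with a level in any library; ESC libraries are blue and E9.5 PGC libraries red. The ESC libraries held 4 and 6 such features and the E9.5 PGC libraries 38 and 35.

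Promoter windows of 7 genes show the sequences behind the main groups of results. They were chosen as examples of pluripotency genes, germline genes, a maternally imprinted gene and X-linked genes, and include a gene with low levels in both groups for the pluripotency set and another for the X set. Each is the 250 bases before the gene's annotated start in the RefSeq genome GRCm38.p6, the build mm10 of the files, read 5′ to 3′ on the gene's strand, with CpG sites in capitals. The deposited promoter values cover a window whose limits are not given in the sources used here, so a printed window need not be the measured one.
Zfp42 (chr8:43306981-43307230, minus strand): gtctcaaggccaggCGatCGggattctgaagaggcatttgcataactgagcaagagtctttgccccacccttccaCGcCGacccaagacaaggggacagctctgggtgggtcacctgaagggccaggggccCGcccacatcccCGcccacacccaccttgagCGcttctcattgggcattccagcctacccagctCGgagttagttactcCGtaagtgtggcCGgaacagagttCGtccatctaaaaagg
Klf2 (chr8:72318783-72319032, plus strand): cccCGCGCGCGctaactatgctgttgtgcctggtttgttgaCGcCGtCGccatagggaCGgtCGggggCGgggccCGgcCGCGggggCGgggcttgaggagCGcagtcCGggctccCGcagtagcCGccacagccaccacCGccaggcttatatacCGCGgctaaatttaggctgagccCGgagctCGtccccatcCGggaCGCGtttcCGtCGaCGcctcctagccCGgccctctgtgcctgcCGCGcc
Asz1 (chr6:18109062-18109311, minus strand): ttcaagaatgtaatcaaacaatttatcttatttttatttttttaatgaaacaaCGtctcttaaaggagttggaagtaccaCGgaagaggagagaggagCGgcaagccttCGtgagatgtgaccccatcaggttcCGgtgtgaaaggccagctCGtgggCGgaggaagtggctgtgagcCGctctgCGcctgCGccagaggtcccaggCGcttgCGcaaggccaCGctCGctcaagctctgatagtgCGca
Hormad1 (chr3:95559427-95559676, plus strand): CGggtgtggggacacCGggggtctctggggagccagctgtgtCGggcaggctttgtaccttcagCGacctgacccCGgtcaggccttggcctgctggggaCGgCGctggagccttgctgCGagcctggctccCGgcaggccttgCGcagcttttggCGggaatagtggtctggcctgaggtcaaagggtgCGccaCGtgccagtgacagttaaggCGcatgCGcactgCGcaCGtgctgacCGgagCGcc
Mcts2 (chr2:152686785-152687034, plus strand): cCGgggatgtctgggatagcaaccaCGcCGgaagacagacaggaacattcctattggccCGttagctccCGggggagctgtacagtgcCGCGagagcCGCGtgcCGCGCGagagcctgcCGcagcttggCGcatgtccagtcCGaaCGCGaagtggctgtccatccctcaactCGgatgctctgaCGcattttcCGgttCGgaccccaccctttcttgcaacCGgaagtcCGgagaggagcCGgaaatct
Rlim (chrX:103981285-103981534, minus strand): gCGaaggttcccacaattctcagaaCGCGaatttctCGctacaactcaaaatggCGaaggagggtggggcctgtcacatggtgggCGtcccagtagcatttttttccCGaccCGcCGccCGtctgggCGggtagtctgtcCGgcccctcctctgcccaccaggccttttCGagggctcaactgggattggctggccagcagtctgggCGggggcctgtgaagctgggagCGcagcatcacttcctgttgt
Kdm6a (chrX:18162325-18162574, plus strand): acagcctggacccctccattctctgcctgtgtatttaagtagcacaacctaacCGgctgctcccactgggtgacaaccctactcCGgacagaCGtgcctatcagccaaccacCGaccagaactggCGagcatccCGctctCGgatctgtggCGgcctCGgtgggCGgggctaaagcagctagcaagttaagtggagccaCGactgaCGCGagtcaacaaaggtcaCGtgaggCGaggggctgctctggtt

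CpG content differed widely among these windows, from 11 CpGs at Zfp42 to 32 at Klf2. Zfp42 stood at 2.22% in ESCs and 64.6% in E9.5 PGCs, whereas Klf2 stood at 1.83% and 1.62%. Rlim and Kdm6a held 15 CpGs each, and their levels in E9.5 PGCs were 46.4% and 2.01%.

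Over all autosomal promoters, the windows with fewer CpGs stood higher in ESCs and differed by more percentage points between the groups. A window was found for 18902 of 18925 promoters. With 0 to 4 CpGs (4085 promoters) the mean level was 28.6% in ESCs and 44.8% in E9.5 PGCs. With 30 or more CpGs (1733 promoters) it was 3.82% and 7.49%. The share of promoters that rose was 36.2% in the first set and 9.69% in the second.

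Methylation was higher in E9.5 PGCs in every class of feature. Over all features the mean level was 26.4% in ESC 1, 21.7% in ESC 2, 37.2% in E9.5 PGC 1 and 36.96% in E9.5 PGC 2. The groups did not overlap, and the ESC libraries stood further apart than the E9.5 PGC libraries. The group means were 24.1% ± 3.33 and 37.1% ± 0.176 (SD, n = 2), a difference of 13.01 percentage points (exact two-sided permutation p = 0.333, the smallest that 2 against 2 allows). ESC 1 and ESC 2 were 10 points or more apart at 25.2% of features, and the E9.5 PGC libraries at 3.89%.

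The difference was smallest at 5′ UTRs and CpG islands and largest at 3′ UTRs. CpG islands averaged 3.79% and 3.45% in the ESC libraries and 7.42% and 7.41% in the E9.5 PGC libraries. Promoters averaged 15.9% and 13.1% against 24.5% and 24.3%. Repeats averaged 50.5% and 42.0% against 65.0% and 64.8%. 3′ UTRs averaged 42.2% and 31.2% against 61.0% and 60.8%, a difference of 24.2 points. In all 8 classes both E9.5 PGC libraries lay above both ESC libraries, each with the same smallest exact permutation p of 0.333.

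The shape of the distribution differed as well. Features at 50% or more made up 25.2% of the features in ESC 1 and 12.4% in ESC 2, against 44.6% and 44.2% in the E9.5 PGC libraries. Features under 10% made up 46.5% and 47.6%, against 38.8% and 39.3%. The median difference was 0.365 points for the 54537 features under 5% in ESCs and 24.99 points for the 20207 features at 20 to 40%.

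**Figure D2:**
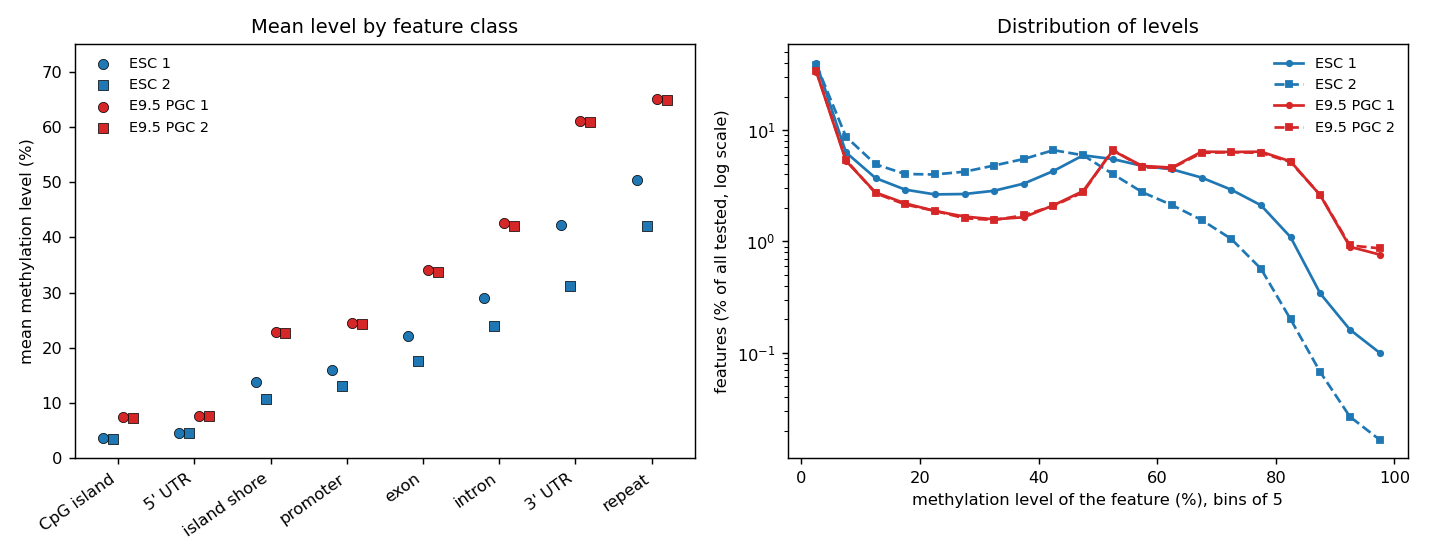
Left, the mean methylation level in percent of each feature class, 1 point per library (ESC blue, E9.5 PGC red; circles replicate 1, squares replicate 2); right, the share of the 138776 features in each 5-point bin of methylation level, on a log scale, 1 line per library. Both E9.5 PGC libraries lie above both ESC libraries in every class, and 44.6% and 44.2% of their features stand at 50% or more against 25.2% and 12.4% in ESCs.

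A test of each feature placed most changes in 1 direction. limma was run on log odds of the level over all 138776 features with Benjamini-Hochberg adjustment, and a feature was called at an adjusted p under 0.05 and a difference of at least 10 points. By this rule 42638 features (30.7%) rose in E9.5 PGCs and 926 (0.667%) fell. Both E9.5 PGC libraries lay above both ESC libraries at 91293 features and below both at 7017, and the groups overlapped at 40466. Centring subtracted the library median from each level on the log2 odds scale and took out a median shift of 1.91. The 10-point limit was still applied to uncentred levels, so features under it could not be called after centring. Among those called, 11204 lay higher and 15789 lower, so the split of calls depended on the overall level. Statements on single features below are on levels as deposited, without centring.

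The share called higher differed by class. It was 53.5% of 3925 3′ UTRs, 43.9% of 18947 introns, 38.1% of 37808 repeats and 36.5% of 19434 exons. It was 26.6% of 14941 shores, 24.4% of 18925 promoters, 8.71% of 13824 CpG islands and 8.38% of 10972 5′ UTRs. The share called lower was highest at shores, 1.71%, and lowest at CpG islands, 0.145%. It was 0.792% of introns, 0.669% of exons, 0.65% of promoters, 0.637% of 3′ UTRs, 0.487% of repeats and 0.355% of 5′ UTRs. On the X chromosome 72.5% of 2664 features rose and 0.113% fell, against 26.8% and 0.749% of 98229 autosomal features. After centring, promoters split into 1435 higher and 1152 lower, islands into 789 and 41, and repeats into 3446 and 8319.

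Promoter and intron of the same gene could be compared in 13143 genes. Both rose in 1894 of them, the intron alone rose while the promoter was not called in 3881, and the promoter alone rose while the intron was not called in 899. Opposite calls were rare, with 11 genes whose promoter rose and intron fell and 28 the other way.

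The largest promoter rises were near complete. Mbd3, which encodes a subunit of the NuRD chromatin remodelling complex (gene at chr10:80392539-80399550), stood at 1.79% and 2.45% in the ESC libraries and at 88.2% and 89.97% in the E9.5 PGC libraries (difference 87.0 points, adjusted p = 0.000845). The CpG island at its start stood at 1.16% and 1.45% against 1.17% and 1.65%, so the promoter and the island differed. The other 4 of the 5 largest rises were the promoters of Gm29454, Mir143, Platr12 and Gm33301, which rose by 83.4 to 89.3 points and of which the Gm genes are predicted and uncertain.

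The largest promoter falls went to low levels in E9.5 PGCs. Cyp2c38, a cytochrome P450 of a multigene family and so uncertain, had 81.5% and 68.5% in ESCs and 0% and 10% in E9.5 PGCs. Srp9, a subunit of the signal recognition particle, had 58.6% and 52.5% against 0.772% and 0.632%. Selenoi, a selenoprotein of phospholipid synthesis, had 79.1% and 56.7% against 13.5% and 16.2%. A730094K22Rik and Klhdc2 completed the 5, with falls of 51.6 and 48.1 points.

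The lists below were compiled for this tissue, and their promoter counts are read against all promoters, of which 24.4% rose, 0.65% fell, and whose median difference was 1.46 points. Of 309 genes on 15 lists, 228 promoters had a level in all 4 libraries. Centring kept the call and direction of 6 of 7 pluripotency, 5 of 7 PGC, 5 of 8 germline defence and 4 of 9 meiosis promoters. It also kept 8 of 15 maternally imprinted, 21 of 29 X-inactivated and 6 of 6 Hox promoters. Centring lowers the E9.5 PGC side relative to ESCs, so it works against rises but not against falls such as those at Hox promoters. The Hox count is thus no check of those falls.

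Promoters of pluripotency genes were low in ESCs, and a subset was high in E9.5 PGCs. Of 26 listed genes, 21 promoters were measured, and 7 rose, 0 fell and 14 were not called (median difference 4.53 points). Of the rises 6 were autosomal. Dppa5a, an RNA-binding protein of pluripotent and germ cells, stood at 2.65% and 2.76% in the ESC libraries and at 83.0% and 82.3% in the E9.5 PGC libraries. Tcl1, a coactivator of AKT kinase, stood at 0.647% and 3.78% against 74.2% and 72.2%. Dppa2, a chromatin protein that protects bivalent promoters, stood at 3.29% and 4.05% against 70.5% and 69.1%. The replicates of each group stood close to each other at these promoters, far from the other group.

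Zfp42, or Rex1, a marker of naive pluripotency, stood at 1.86% and 2.58% in ESCs and 65.4% and 63.8% in E9.5 PGCs. Pou5f1, the central pluripotency factor Oct4 that PGCs also express, stood at 2.67% and 2.93% against 24.8% and 24.7%. The adjusted p was 0.000845 at Dppa5a, Dppa2 and Zfp42, 0.00174 at Tcl1 and 0.00151 at Pou5f1. Lefty2, a secreted Nodal inhibitor, rose by 18.9 points. Promoters of other core factors were low in all 4 libraries, with Sox2 at 1.31% to 2.01%, Klf4 at 1.91% to 2.38% and Klf2 at 1.56% to 2.09%.

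Promoters of genes for PGC specification and identity showed the same mixture. Of 19 listed genes 11 were measured, and 7 rose and 0 fell (median difference 33.3 points). Of these rises 4 were autosomal. The others, at Rhox9, Rhox6 and Elf4, were X-linked, and 70.1% of X-linked promoters rose. Dppa3, or Stella, a defining gene of PGCs that protects methylation in the zygote, stood at 2.55% and 3.61% in ESCs and at 67.1% and 69.8% in E9.5 PGCs (adjusted p = 0.000845). Kit, the receptor for Kit ligand on migrating PGCs, stood at 10.9% and 20.01% against 45.3% and 52.2% (adjusted p = 0.0126). Genes known as active in PGCs were thus among those with highly methylated promoter values in the libraries labelled E9.5 PGC. The name E9.5 PGC follows that label throughout, and the purity of the sorted cells was not tested.

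The other members of this list split by gene. Rhox9, an X-linked homeobox gene of the germline, rose by 65.3 points, Pecam1, an adhesion protein, by 55.9 and Sox15, a Sox factor, by 43.5. X-linked Rhox6 rose by 40.6 points, although it lost its call after centring, and Elf4, also X-linked, rose by 20.5. Tfap2c, a transcription factor required for PGC fate, stood at 1.71% to 2.44% over the 4 libraries, and Cxcr4, the homing receptor of migrating PGCs, at 1.56% to 2.60%. Itgb3, which encodes the CD61 used for sorting, stood at 2.33% to 3.07%.

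Genes of germline genome defence carried high promoter methylation in E9.5 PGCs. Of 23 listed genes 13 were measured, and 8 rose and 0 fell (median difference 39.9 points). Ddx4, the germ granule helicase Vasa, stood at 13.01% and 9.91% in ESCs and 72.3% and 72.9% in E9.5 PGCs (adjusted p = 0.00108). Asz1, a germ granule protein of the piRNA pathway, stood at 34.3% and 19.5% against 87.5% and 88.0% (adjusted p = 0.00259). Piwil2, a piRNA-binding protein, stood at 15.6% and 9.41% against 70.1% and 69.0%. ESC 2 lay below ESC 1 at each of these 3 promoters, and both lay far below the E9.5 PGC libraries.

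The remaining rises of the list were Rnf17 (56.8 points), Mael (49.3), Fkbp6 (41.5), Dazl (39.9) and Tdrd7 (15.3), the last reversed in direction after centring. Dazl, a translational regulator required in germ cells, had the ESC libraries far apart, at 39.7% and 12.03%, against 65.6% and 66.0% (adjusted p = 0.0455). Tdrd9 had no agreement within either group, with 8.33% and 56.9% in ESCs and 71.1% and 30.8% in E9.5 PGCs. Mybl1 and Ddx25 stayed at 0.794% to 2.45% in all 4 libraries.

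Meiosis genes resembled them. Of 27 listed genes 16 were measured, and 9 rose and 0 fell (median difference 18.1 points). Msh4, a protein of meiotic crossover formation, stood at 2.71% and 2.21% in ESCs and at 69.8% and 73.5% in E9.5 PGCs (adjusted p = 0.000845). Sycp2, a component of the chromosome axis, stood at 17.6% and 8.24% against 72.9% and 73.6%. Hormad1, an axis protein that monitors synapsis, stood at 34.7% and 15.8% against 82.6% and 81.4%. Hormad2 rose by 36.2 points and Sycp3 by 35.9, the latter not called after centring.

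Both sequence motifs searched were found more often in the windows of these germline genes than over all promoters, as a description of letters only. The E-box CACGTG stood in 7 of the 29 windows of the germline defence and meiosis lists (24.1%) and in 7.34% of all windows. The letters TCCCGC, on either strand, stood in 11 of the 29 (37.9%) and in 24.6% of all. Among the 17 of these promoters that rose, each motif stood in 5 windows (29.4%), which for TCCCGC was closer to the share of all promoters. Neither motif holds the letters of the other, and no test was run on them.

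**Figure D3:**
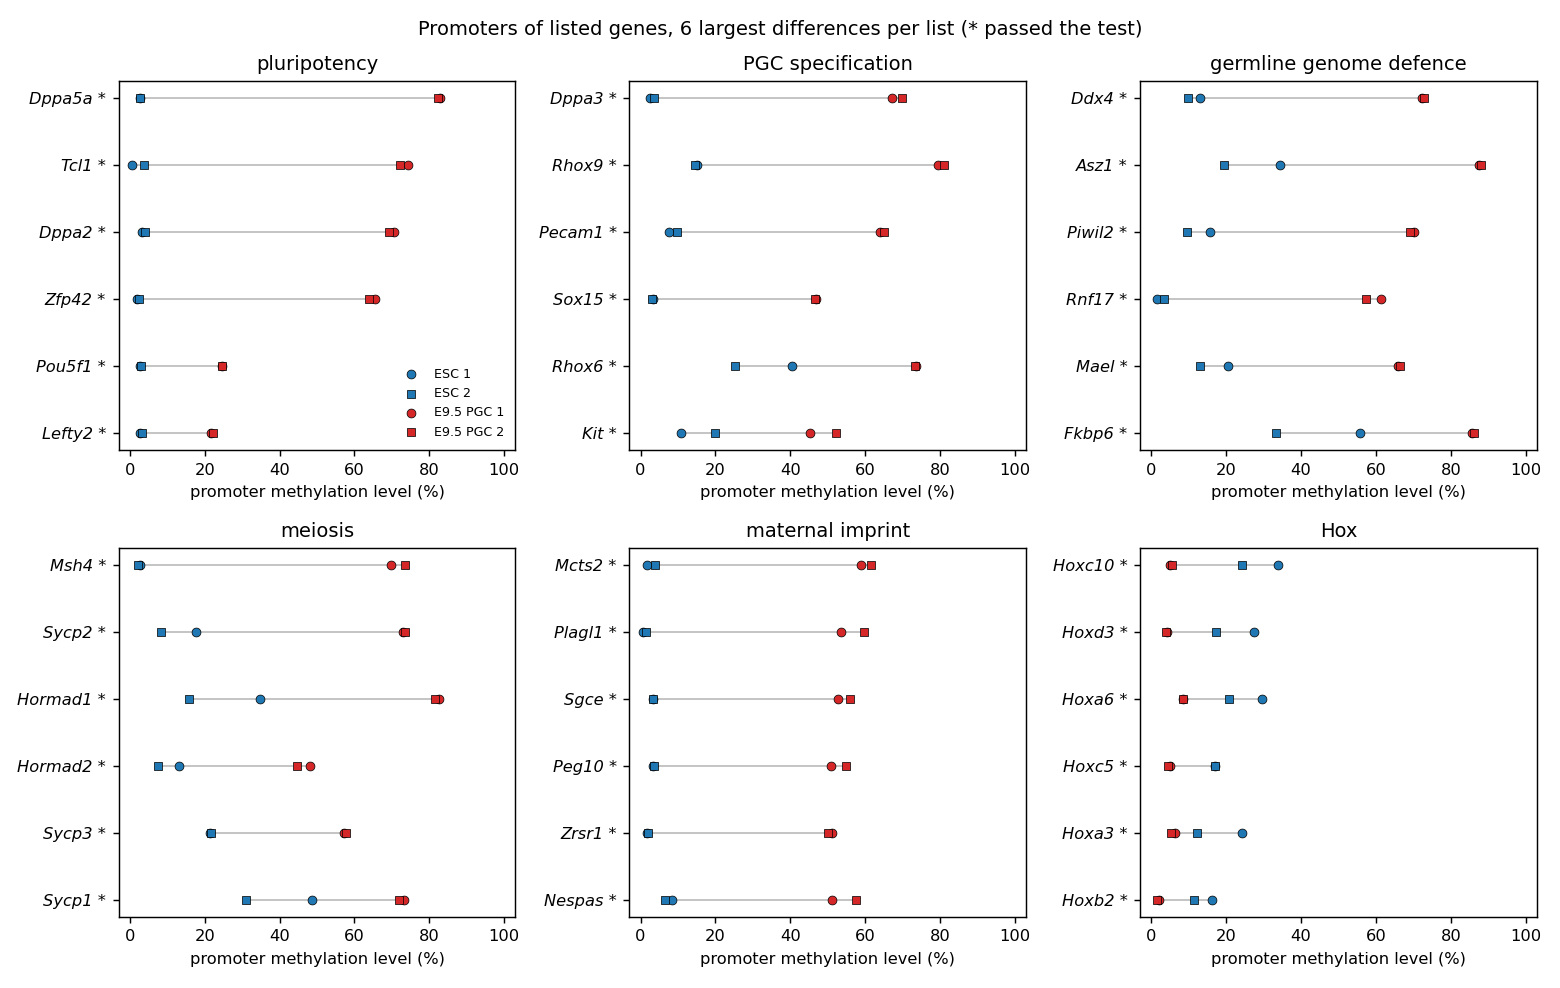
Promoter methylation level in percent for the 6 genes with the largest absolute difference in each of 6 lists, 1 point per library (ESC blue, E9.5 PGC red; circles replicate 1, squares replicate 2), with an asterisk for promoters that passed the test and a grey line from the lowest to the highest library. Dppa5a lies at 2.65% and 2.76% in ESCs and 83.0% and 82.3% in E9.5 PGCs, and at the 6 called Hox promoters the E9.5 PGC libraries lie below both ESC libraries.

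Maternally imprinted genes averaged near 50% in E9.5 PGCs, and most stood far below it in ESCs. These genes carry a methylation mark on the copy from the oocyte, so cells with an intact imprint hold a mark on 1 parental copy. Of 24 listed genes 15 promoters were measured, and all 15 rose (median difference 42.0 points), against 24.4% of all promoters. The mean over them was 14.8% and 14.2% in the ESC libraries and 52.9% and 54.5% in the E9.5 PGC libraries. Its distance from the mean of all promoters was −1.13 and 1.14 points in ESCs and 28.4 and 30.3 points in E9.5 PGCs (exact two-sided permutation p = 0.333).

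Single imprinted promoters ranged from near 0 to 42.98% in ESC 1. Mcts2, a retrogene inside H13, stood at 1.66% and 3.76% in ESCs and 58.8% and 61.5% in E9.5 PGCs, and the island at its start at 1.55% and 2.97% against 58.7% and 58.2%. Plagl1, a zinc finger growth regulator, stood at 0.614% and 1.49% against 53.5% and 59.7%. Zrsr1, a splicing factor retrogene, stood at 1.65% and 1.91% against 51.2% and 50.1%. All 3 promoters were thus almost unmethylated in ESCs and near 50% in E9.5 PGCs (adjusted p = 0.00117, 0.000872 and 0.000845).

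Sgce and Peg10, which share a promoter region, rose by 51.1 and 49.5 points. Other members kept part of the level in ESCs. Snrpn, of the Prader-Willi region, stood at 34.5% and 44.8% against 59.2% and 66.5% (adjusted p = 0.0351), a direction that reversed after centring. Peg13 stood at 38.3% and 39.6% against 56.2% and 59.8% and also reversed after centring. The smallest rises of the list were 19.1 points at Peg13 and 21.3 points at Grb10. Inpp5f differed among its parts, since its promoter stood at 30.6% and 28.1% in ESCs and 60.97% and 56.7% in E9.5 PGCs, a direction that reversed after centring, while the island nearest its start fell from 16.1% and 7.85% to 2.27% and 1.48% (adjusted p = 0.0172). Its exon and its 5′ UTR fell too, the only called falls among 20 exons and 12 5′ UTRs of the list, of which 17 and 10 rose.

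Paternally imprinted loci differed less at their promoters, although the marks of these loci lie mostly outside promoters. Of 8 listed genes 6 were measured, and only Meg3 rose, from 24.9% and 28.5% to 48.0% and 50.0% (adjusted p = 0.0162), a direction that reversed after centring. H19 stood at 60.3% and 61.6% in ESCs and 69.4% and 57.1% in E9.5 PGCs, so its groups overlapped. Igf2 differed by −2.73 points, and Dlk1 and Rasgrf1 stood at or below 2.77% in every library.

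The X chromosome differed from the autosomes at CpG islands. In females 1 X chromosome per cell is inactive, and its islands become methylated. X-linked islands averaged 4.36% and 3.70% in the ESC libraries and 22.5% and 22.6% in the E9.5 PGC libraries. Autosomal islands averaged 3.76% and 3.43% against 7.002% and 6.99%. The X-linked mean exceeded the autosomal mean by 0.604 and 0.269 points in ESCs and by 15.5 and 15.6 points in E9.5 PGCs (exact two-sided permutation p = 0.333). Of 351 X-linked islands 301 (85.8%) rose and 0 fell, against 6.68% of 13467 autosomal islands that rose and 0.149% that fell. After centring 196 X-linked islands rose and 0 fell. The minimum difference was still applied to uncentred levels, so islands under it could not be called lower after centring. The absence of falls thus covers only islands that passed this limit.

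The rises at X-linked islands were moderate in size and spread along the chromosome. The median X-linked difference was 16.4 points, with 80% of islands between 8.71 and 25.96 points, whereas the median on single autosomes ran from 0.204 to 0.336 points. In E9.5 PGCs 292 of the 351 islands (83.2%) stood between 10 and 35%, 24 stood at 50% or more and 29 under 10%. The libraries with these values also held the Y chromosome features given above, so the shares of cells with 1 or 2 X chromosomes in them are not known. The number of X chromosomes in the ESC libraries was not tested either.

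Genes known to be inactivated and genes known to escape were set apart by list. Of 43 listed inactivated genes 37 promoters were measured, and 29 rose and 0 fell (median difference 18.3 points), against 70.1% of 522 X-linked promoters that rose. Of the 18380 autosomal promoters 23.1% rose and 0.664% fell. Of 14 listed escape genes 10 were measured, and 1 rose (median difference 0.0302 points). The mean of the inactivated list exceeded that of the escape list by 0.305 and 0.560 points in ESCs and by 16.3 and 16.6 points in E9.5 PGCs (exact two-sided permutation p = 0.333).

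Among inactivated genes, Rlim, a ubiquitin ligase that activates Xist, stood at 0.733% and 1.64% in ESCs and 51.6% and 41.1% in E9.5 PGCs, while the island at its start stood at 24.5% and 23.8% in E9.5 PGCs. Gata1, an erythroid factor, stood at 28.9% and 19.7% against 71.0% and 84.6%. Smc1a, a cohesin subunit, rose by 38.9 points but lost its call after centring, Nono, an RNA-binding protein, rose by 34.8 and Cul4b, a ubiquitin ligase scaffold, by 33.2. The smallest differences of the list were 1.52 points at Bcor, 6.87 at Lamp2, 9.52 at Taf1, 9.63 at Ogt and 9.69 at Flna, none of which was called.

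Among escape genes, the histone demethylase Kdm6a stood at 1.95% and 2.76% in ESCs and 2.31% and 1.70% in E9.5 PGCs. The translation factor Eif2s3x stood at 1.02% and 1.80% against 1.36% and 1.20%, and the helicase Ddx3x at 1.60% and 3.98% against 1.06% and 1.93%. Jpx, Pbdc1 and 5530601H04Rik differed by less than 1 point, the last a Rik gene and uncertain. Kdm5c stood at 4.07% and 4.44% against 9.36% and 9.03%. Utp14a stood at 0.939% and 1.42% against 4.79% and 5.83%, and both differences were under the 10-point limit. Ftx, an RNA gene, differed by 6.33 points. Mid1 alone was called, from 32.6% and 26.6% to 51.7% and 52.1% (adjusted p = 0.0204), and its direction reversed after centring.

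**Figure D4:**
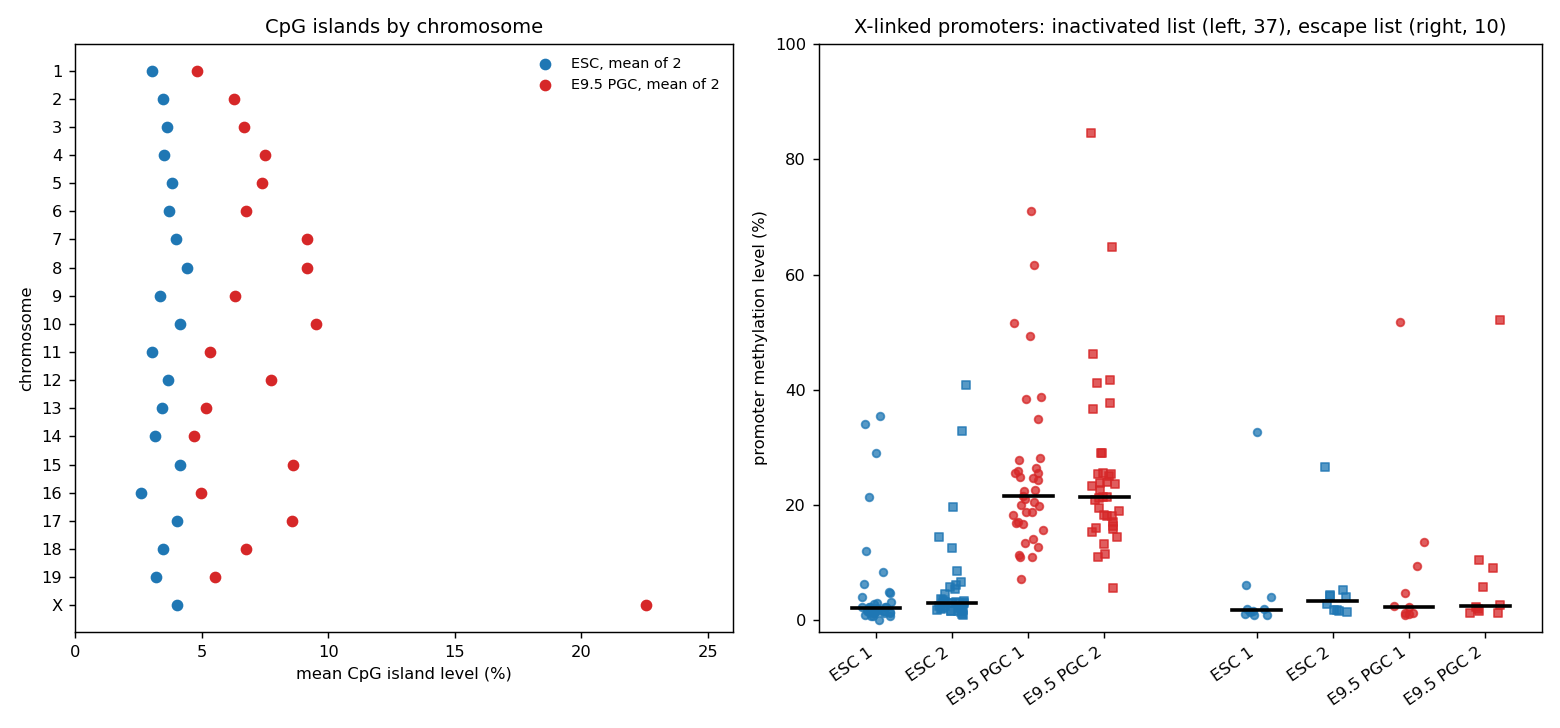
Left, the mean CpG island level in percent on each autosome and on X, for the mean of the 2 ESC libraries (blue) and of the 2 E9.5 PGC libraries (red); right, the promoter level in percent of each gene of the X-linked inactivated list (37 genes) and escape list (10 genes) in every library, with bars at the medians. Islands on X average 4.03% in ESCs and 22.5% in E9.5 PGCs, and the inactivated genes lie higher in E9.5 PGCs while the escape genes apart from Mid1 stand at or below 13.6%.

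On the autosomes, the islands that rose lay mostly away from gene starts. Of 3049 islands inside protein-coding genes 655 (21.5%) rose, of 1077 between genes 130 (12.1%) rose, and of 9341 within 500 bases of an annotated start 114 (1.22%) rose. The mean of islands inside genes was 8.85% and 6.47% in ESCs and 18.6% and 18.5% in E9.5 PGCs, against 1.92% and 2.33% and 2.86% and 2.86% at starts. Islands inside genes exceeded those at starts by 6.93 and 4.14 points in ESCs and by 15.7 and 15.6 points in E9.5 PGCs (exact two-sided permutation p = 0.333). In E9.5 PGCs 558 islands inside genes stood at 50% or more in both libraries, and in ESCs 58 did.

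Length and base content went with these calls. Autosomal islands that rose had a median length of 343 bases and a median CpG observed-to-expected ratio of 0.820, and those not called 634 bases and 0.884. On the X chromosome, the median length of islands that rose was 576 bases and that of the others 512.5. Inside genes, 37.7% of islands under 300 bases rose and 8.95% of those over 1000 bases. How many sites and reads lay behind each of these values is not known.

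The 5 largest island rises all lay in exons. The island at chr8:48228508-48229133 in an exon of Tenm3, a neuronal adhesion protein, stood at 3.83% and 3.45% in ESCs and 95.5% and 95.5% in E9.5 PGCs (adjusted p = 0.000845). Another 3 overlapped exons of Wdfy3, Zmynd8 and Pde4dip and rose by 86.9 to 90.3 points.

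Falls at islands were few, 20 in all. The island at chr1:138841499-138842069 in an exon of Lhx9, a LIM homeobox factor of the gonad, stood at 69.9% and 33.5% in ESCs and 2.56% and 2.19% in E9.5 PGCs (adjusted p = 0.00754). An island in an intron of Barhl1, a homeobox factor of neurons, stood at 44.6% and 17.7% against 3.45% and 3.78%. The others of the 5 largest falls lay in an exon of Mthfsl and between genes nearest 1700021F13Rik and Gm11378, a Rik and a predicted gene that are uncertain, and fell by 27.99 to 50.8 points. ESC 2 was well below ESC 1 at each of the 2 homeobox islands, yet still above both E9.5 PGC libraries.

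Hox genes went the other way from most features. They encode the homeobox factors of the body axis and lie in 4 clusters of largely unmethylated DNA. Of 39 listed genes 34 promoters were measured, and 0 rose, 6 fell and 28 were not called, against 0.65% of all promoters that fell. Hoxc10 stood at 33.9% and 24.3% in ESCs and 4.89% and 5.46% in E9.5 PGCs (adjusted p = 0.00445). Hoxd3 stood at 27.3% and 17.3% against 4.303% and 3.93% (adjusted p = 0.00753). Hoxa6, Hoxc5, Hoxa3 and Hoxb2 fell by 16.6, 12.3, 12.2 and 12.1 points.

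Over all classes, 243 features belonged to Hox genes or lay within 2000 bases of their starts, and 21 fell (8.64%) and 0 rose, against 0.667% and 30.7% of all features. The falls lay at shores (8 of 69), promoters (6 of 34), 3′ UTRs (3 of 16), introns (3 of 31) and an exon (1 of 37). None of 37 islands and none of 19 5′ UTRs was called. The island at the start of Hoxc10 stood at 1.13% and 2.91% in ESCs and 4.68% and 3.09% in E9.5 PGCs. The 3′ UTR of Hoxd3 stood at 60.7% and 47.0% against 10% and 10.5%. Some features share sites, since the Hoxc10 intron and a Hoxc5 shore had the same value in every library.

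Several falling features were also found in genes outside the Hox clusters. A called fall was found in 483 genes or their near islands and shores, and 3 or more such falls in 28 of them. Their share of all genes was not computed, and 0.667% of all features fell. Helt, Prdm13 and Tcf21 led with 5 falls each, of 8, 8 and 5 features tested. The falls are not all separate regions, since the Tcf21 exon and promoter each had the same values as a shore in every library. Helt, Prdm13 and Tcf21 were singled out after their values were seen. Helt, a factor of neuron fate, stood at 30.9% and 22.5% in its 5′ UTR in ESCs and 2.67% and 2.92% in E9.5 PGCs. Tcf21, a factor of mesenchyme, stood at 45.6% and 23.0% at its promoter against 5.34% and 5.65%. The promoter of Prdm13, a factor of neurons, stood at 22.9% and 11.03% against 4.80% and 4.77%. Over all 926 falling features the median level was 29.8% in ESCs and 5.91% in E9.5 PGCs, and 630 stood under 10% in E9.5 PGCs.

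Within gene bodies, the largest rises were the 5′ UTRs of Gm16253 and Usp50, the 3′ UTR of Mpdu1, and exons of Timm21 and Gm28006, at 89.9 to 93.8 points, the Gm genes being predicted and uncertain. The 3′ UTR of Mpdu1, which acts in dolichol sugar use, stood at 3.65% and 1.61% in ESCs and 92.3% and 96.5% in E9.5 PGCs. The largest falls were the introns of Epb42, Gm20485, Gm15446 and Acadl and the 3′ UTR of Emx2. Epb42, a protein of the red cell membrane, stood at 67.9% and 55.7% in ESCs and 0% in both E9.5 PGC libraries. Emx2, a homeobox factor of the urogenital system, stood at 73.9% and 43.2% against 6.18% and 2.94%.

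The methylation machinery showed rises at few members. Of 22 listed genes 20 were measured, and 6 rose and 0 fell (median difference 3.91 points), a share close to that of all promoters. After Mbd3, described above, Hells, a chromatin remodeller needed for methylation, stood at 4.92% and 6.57% in ESCs and 67.4% and 45.3% in E9.5 PGCs. The island at its start stood at 0.794% and 2.46% against 1.86% and 3.11%. Ehmt2, Ehmt1 and Dnmt3a rose by 26.4, 25.9 and 20.01 points, and all 3 reversed after centring. The other rise was Tdg, at 13.2 points, which reversed after centring as well, so that Mbd3 and Hells alone kept their calls. Dnmt1, the maintenance methyltransferase, stood at 9.40% and 10.9% against 20.97% and 17.96%, under the 10-point limit. Tet1, Tet2, Tet3, Uhrf1 and Zfp57 stood at or below 7.77% in every library.

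Markers of other cell types were measured at few promoters each. Formative and gastrulation genes had 1 rise among 16 measured of 22, at X-linked Sox3, by 13.1 points, a direction that reversed after centring, and a median difference of −0.438 points. The largest falls there did not pass the test, with differences of −2.82 points at Sox17, −2.65 at Tbx6 and −2.20 at Gsc. Fibroblast markers (7 of 12 measured), gonad mesenchyme markers (9 of 10) and neural markers (6 of 10) had 0 calls, with differences from −4.58 to 7.43, −6.93 to 2.50 and −5.08 to 1.87 points. Blood and endothelial markers had 3 rises among 10 of 15, against 24.4% of all promoters. They were at Tie1 (30.7 points), Cdh5 (24.98 points) and X-linked Gata1. The directions of Tie1 and Cdh5 reversed after centring. Methylation at these promoters does not count cells, and the part of other cell types in any result was not tested.

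Repeats were higher in E9.5 PGCs in all families, least so in the internal parts of IAP elements. IAPs are young retroviral elements known to keep methylation in PGCs. Their 785 stretches averaged 71.2% and 65.1% in the ESC libraries and 78.2% and 77.7% in the E9.5 PGC libraries, a difference of 9.76 points, against 18.7 points over all repeats. IAP stretches exceeded the other repeats by 21.2 and 23.6 points in ESCs and by 13.5 and 13.1 points in E9.5 PGCs (exact two-sided permutation p = 0.333). The internal parts (610 stretches) differed by 8.27 points and the long terminal repeats (175) by 15.0. By the test 13.8% and 36.0% of them rose, against 38.1% of all repeats. Over all classes, features over 60% in ESCs had a median difference of 11.3 points. Those at 20 to 40% had 24.99. The small IAP difference was not separated from the high level of IAPs in ESCs.

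Within IAP elements with at least 20 stretches, the smallest differences were 3.76 points at IAPEy-int, 6.35 at IAPEY5_I-int and 6.98 at IAPEz-int, and the largest 16.9 at IAPEY4_I-int, 14.2 at IAPLTR2b and 13.5 at IAPEY3_LTR. IAPEz-int (283 stretches) averaged 76.6% and 72.1% in ESCs and 81.6% and 81.0% in E9.5 PGCs. A single stretch of it, consensus bases 1 to 2975, was among the 5 largest falls of all repeats, from 74.1% and 67.5% to 0% in both E9.5 PGC libraries.

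Young LINE-1 elements differed by subfamily. L1MdA (5960 stretches) averaged 57.2% and 51.1% in ESCs and 65.5% and 65.4% in E9.5 PGCs, and L1MdTf (1069 stretches) 52.9% and 40.2% against 72.3% and 72.1%. L1MdGf (831 stretches) averaged 60.1% and 47.6% against 73.9% and 73.6%. The largest L1Md differences were 43.2 points at L1MdTf_II, 41.0 at L1MdTf_I and 35.4 at L1MdN_I, and the smallest 9.35 at L1MdA_VII, 10.02 at L1MdA_IV and 10.2 at L1MdA_VI.

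The excess lay at the start of the element, where the promoter of a LINE-1 lies. Stretches of L1MdTf that began in the first 1000 consensus bases (804) averaged 53.2% and 38.4% in ESCs and 76.7% and 76.8% in E9.5 PGCs, a difference of 31.0 points. Those that began later but before base 5000 (51) and those that began from there on (214) differed by 9.52 and 9.32 points. The start exceeded the later parts by 0.930 and −7.34 points in ESCs and by 17.97 and 18.9 points in E9.5 PGCs (exact two-sided permutation p = 0.333). For L1MdGf the start differed by 24.7 points and for L1MdA by 13.7 points, and their later parts by 9.62 to 10.1 points.

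By family, the largest differences were 26.02 points at B1, 25.63 at L1MdTf, 25.61 at B2 and 24.7 at B4. B1 (2421 stretches) averaged 39.9% and 31.6% in ESCs and 61.8% and 61.7% in E9.5 PGCs, B2 (1200) 43.8% and 34.4% against 64.9% and 64.6%, and B4 (2689) 42.7% and 33.4% against 62.9% and 62.7%. Among SINE elements the largest differences were 31.3 points at B1_Mm, 30.7 at B2_Mm1a and 29.2 at B1_Mus2, and the smallest 18.08 at ID2, 20.6 at MIR1_Amn and 21.1 at MIR3. ERVL (976) differed by 23.7 points, MT and ORR1 elements by 24.2, ERVK long terminal repeats outside IAP by 22.6 and ERVK internal parts outside IAP by 15.0. DNA transposons differed by 21.7 points, Lx by 19.5, ERV1 by 18.02 and other L1Md elements by 13.05. L1M differed by 23.5 points, L2 by 22.3, MIR by 21.9 and MLT by 23.2.

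MERVL, the retrovirus active in early embryos, was measured at few stretches. Its internal part MERVL-int (11 stretches) averaged 49.1% and 42.5% in ESCs and 65.3% and 64.5% in E9.5 PGCs, and its relative MERVL_2A-int (14) 51.0% and 39.8% against 61.8% and 62.8%. Its long terminal repeat MT2_Mm had 2 stretches, with a difference of 9.71 points, and the related MT2B and MT2C_Mm had the largest differences, 28.8 and 31.8 points over 85 and 5 stretches. Over all 233 elements with at least 20 stretches, both E9.5 PGC libraries exceeded both ESC libraries at 233, with differences from 3.76 to 43.2 points.

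**Figure D5:**
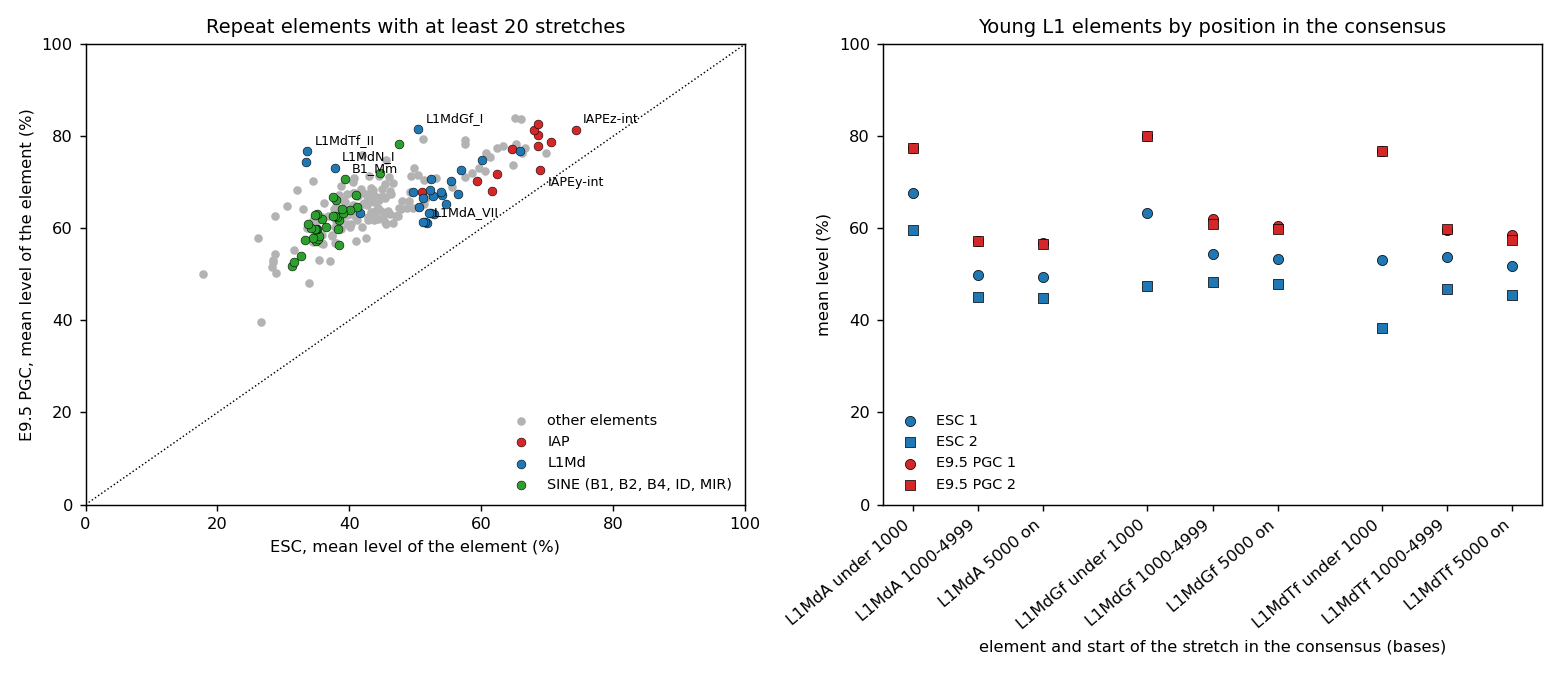
Left, the mean level in percent of each of 233 repeat elements in ESCs (horizontal) against E9.5 PGCs (vertical), with IAP, L1Md and SINE elements coloured and a dotted line of equal levels; right, the mean level of L1MdA, L1MdGf and L1MdTf stretches in every library by where they begin in the consensus (ESC blue, E9.5 PGC red; circles replicate 1, squares replicate 2). All elements lie above the line, IAPEy-int nearest to it at 3.76 points and L1MdTf_II furthest at 43.2 points.

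The other groups of the series were set beside these levels without a test, at promoters with a level in all 12 libraries. The mean of the pluripotency list was 2.97% and 3.69% in parthenogenetic ESCs, 13.6% and 13.99% in E12.5 PGCs, 15.4% and 14.9% in PGC-like cells from ESCs and 13.9% and 13.1% in those from parthenogenetic ESCs. Dppa5a stood at 50.4% and 51.7% in E12.5 PGCs and at 56.1% and 61.1% in PGC-like cells from ESCs. The Hox list averaged 7.68% and 7.62% in parthenogenetic ESCs and 3.31% and 3.54% in E12.5 PGCs. For these lists the parthenogenetic ESCs thus stood with the ESCs and the E12.5 PGCs with or nearer to the E9.5 PGCs. This did not hold throughout. The mean over all promoters was 15.3% and 15.6% in E12.5 PGCs, nearer to 15.4% and 12.7% in ESCs than to 23.9% and 23.7% in E9.5 PGCs. On the maternally imprinted list the parthenogenetic ESCs averaged 33.5% and 32.8%, above the ESCs at 13.1% and 12.4%.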

How the data were processed

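RRBS libraries were made by MspI digestion, and 4 of 12 were compared, 2 of ESCs and 2 of E9.5 PGCs. The submitters' processing notes name Bismark 0.16.3, Bowtie2 and mm10. The authors deposited 1 methylation fraction per feature, without read counts, so depth and counting error are unknown. Fractions were turned into percent. The coverage minimum and promoter limits are not given in the sources used here. Of 30073 gene IDs, 30041 matched GENCODE (GRCm38).

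Each feature was tested with limma 3.58.1 (R 4.3.3) on log2((fraction + 0.01)/(1 − fraction + 0.01)), with Benjamini-Hochberg adjustment over all features and at least 10 points of difference. Means were compared by exact two-sided permutation (scipy 1.17.1). The code was tested on simulated data. With separate cultures or embryos not described, p-values measure the spread between these libraries. Named were, per class, the 5 largest called rises and falls without overlap, per list the 5 promoters that differed most, all escape genes, and 3 elements at each end per repeat family. The members and lists were chosen with earlier results of these data known. Alternatives were another offset, untransformed levels, centring, all 12 libraries, other limits, a replicate block and leaving out libraries. A few members of these sets are not reported here.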

Additional observations from a re-analysis of the deposited data

Results flagged for a closer look

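Y chromosome features with a level numbered 38 in E9.5 PGC replicate 1 and 35 in replicate 2, of 43, against 4 and 6 in the ESC libraries, while the source embryos were described as female. Only 4 of them had a level in all 4 libraries and so were among the features compared. The values of the X-linked features come from the same libraries. On the autosomes alone 26282 of 98229 features (26.8%) rose and 736 (0.749%) fell, so the direction of the comparison did not rest on the X chromosome. The origin of the Y sequence was not tested.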

How the results depend on the processing

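The p-values rest on 2 libraries a group with unknown read depth, and the exact tests could not go below 0.333. In every class E9.5 PGCs stayed higher with medians, with features of all 12 libraries and without any 1 library, and class levels were not recomputed after centring. Of 170 alternative values 151 stayed in range and 19 moved, and the cause was not tested. Differences of the medians over features were 24.5 points for all features, 0.274 for islands, 0.304 for 5′ UTRs, 2.65 for shores, 2.27 for promoters, 24.46 for introns, 16.96 for X-linked islands, 50.9 for germline and 47.2 for maternally imprinted promoters (40.6 for their mean in features of all 12 libraries). Called were 26993 features, 2587 promoters and 196 X-linked islands after centring, 9537 repeats on untransformed levels, 28228 features on autosomes alone (fewer tested) and 92 X-linked islands at 20 points or more. Leaving out 1 library gave 29783 to 62069 features, 3484 to 6230 promoters, 1219 to 1288 islands, 291 to 302 X-linked islands and 9597 to 24789 repeats (24789 without ESC 1, 9687 without E9.5 PGC 1, 9597 without E9.5 PGC 2), and differences of 10.7 to 15.4 points over all features and 6.71 to 12.8 at IAPs. Of 6 Hox falls 5 were called with the larger offset, 4 without ESC 1, without E9.5 PGC 1 or without E9.5 PGC 2, 3 on untransformed levels and 1 at 20 points or more. The lone library is then assumed to vary like the other group.

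After centring, log2 odds differences of called list promoters reversed at Cdh5 (-0.45), Dnmt3a (-0.50), Ehmt1 (-0.38), Ehmt2 (-0.16), Emd (-0.39), Inpp5f (-0.16), Meg3 (-0.54), Mid1 (-0.57), Msh5 (-0.98), Peg13 (-0.81), Snrpn (-0.56), Sox3 (-0.39), Spo11 (-0.10), Tdg (-0.49), Tdrd7 (-0.42) and Tie1 (-0.048). With the replicate block 49825 features, 5371 promoters, 1310 islands, 305 X-linked islands and 17412 repeats were called. The samples share only a number (correlation of the replicate differences -0.0339).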
